A study of Homo sapiens with 20 samples.

Results

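The RBM genes are human genes whose symbol is RBM followed by a number and at most 1 letter, such as RBM39 or RBM12B, and they were taken by symbol from each deposited table with antisense and read-through genes left out. They numbered 37 of 28278 genes in the table of FUBP1 RNA immunoprecipitation (RIP). In the tables of skipped exon events, they held 65 of 19792 events for FUBP1 knockdown (20 genes), 85 of 32990 for U3 knockdown (21 genes) and 20 of 7065 for fibrillarin knockdown (10 genes). All libraries came from HepG2, a human liver cancer cell line. FUBP1, a nuclear RNA-binding protein that acts at 3′ splice sites, was depleted with the siRNA siFUBP1 and compared with the control siRNA siCtrl2, 48 h after transfection (3 libraries each). U3, a C/D box small nucleolar RNA, was depleted with an antisense oligonucleotide (U3 ASO) and compared with an oligonucleotide against GFP (GFP ASO), 72 h after transfection (3 libraries each). FBL, the 2′-O-methyltransferase fibrillarin, was depleted with siFBL and compared with siCtrl after 48 h, with 2 input and 2 FUBP1 RIP libraries in each condition. Each depletion used 1 siRNA or 1 oligonucleotide and had its own control libraries. The study's methods call the replicates biological, without saying whether each was a separate culture, so p-values reach no further than these libraries. For exon events the spread was estimated over many events and not from the event's own libraries. For RIP it came from the deposited standard errors.

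RBM proteins carry RNA recognition motifs, folds that bind short stretches of single-stranded RNA. Many of them belong to or regulate the spliceosome: RBM39 is related to the U2AF large subunit, RBM5, RBM6 and RBM10 are related regulators of exon inclusion, and RBM25 acts with the U1 particle. Others serve different RNA machines, including the exon junction complex (RBM8A), nuclear RNA decay (RBM7, RBM26, RBM27), the m6A writer complex (RBM15, RBM15B), the minor spliceosome (RBM41, RBM48) and nucleolar ribosome assembly (RBM19, RBM28, RBM34). Splicing regulators of this kind often control their own transcripts through "poison" exons, alternative exons that bring a stop codon into the reading frame and mark the transcript for nonsense-mediated decay (NMD).

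Results on splicing turned on a pair of RBM39 exons, which are shown with 50 intron bases before and 20 after them in lower case and the exon in capitals, read 5′ to 3′ on the minus strand of chromosome 20 (hg38). The first is a 72-base exon at chr20:35734186-35734257, between exons 3 and 4 of the 17 exons of the canonical transcript. The second is a 73-base exon at chr20:35740525-35740597, between exons 2 and 3.
RBM39 72-base exon: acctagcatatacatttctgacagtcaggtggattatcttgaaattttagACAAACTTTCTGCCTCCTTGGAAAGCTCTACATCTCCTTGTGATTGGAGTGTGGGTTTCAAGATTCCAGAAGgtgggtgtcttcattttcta
RBM39 73-base exon: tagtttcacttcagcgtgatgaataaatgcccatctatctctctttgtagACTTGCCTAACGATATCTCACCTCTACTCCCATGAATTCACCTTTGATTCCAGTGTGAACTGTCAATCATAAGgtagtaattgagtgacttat

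Neither exon is in the canonical transcript. GENCODE release 44 placed the 72-base exon in 5 RBM39 transcripts, of which 0 were protein-coding and 3 were annotated as NMD targets, and the 73-base exon in 10, of which 0 were protein-coding and 9 were NMD targets. Read in the frame of the canonical transcript, each exon held 1 stop codon, which began at base 41 of the 72-base exon and at base 70 of the 73-base exon. The 50 intron bases before the 72-base exon were 36% T and those before the 73-base exon 38% T, beside a median of 38% over 29259 tested exons. By this measure of the 3′ splice site region, both exons lay near the middle of all exons.

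Depth differed between the tables. Junction reads over all listed events were 2693397 to 4474350 per library for siCtrl2 and siFUBP1, 11249641 to 13321799 for GFP ASO and U3 ASO, and 910779 to 1142189 for the input libraries of siCtrl and siFBL. The level of FUBP1 itself, in junction reads scaled to a library total of 1000000 (rpm), fell from 50.5 ± 5.44 to 7.52 ± 3.09 rpm (SD, n = 3), 14.9% of control, with siFUBP1 (limma, adjusted p = 9.21e-05). The hepatocyte-lineage markers fixed for HepG2 numbered 10, and tests of their level were possible for 8 with siFUBP1, 9 with U3 ASO and 8 with siFBL.

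FUBP1 depletion lowered inclusion of the RBM39 72-base exon and called no other RBM event. The inclusion level of an exon is the length-scaled share of junction reads that include it, on a scale of 0 to 1. It is a share of the RNA present. For an exon of NMD targets, a change in splicing and a change in decay cannot be told apart by it. Changes are given as depletion minus control. The level of the 72-base exon was 0.0848, 0.0782 and 0.0755 in the siCtrl2 libraries and 0.0356, 0.0149 and 0.0157 in the siFUBP1 libraries. All siFUBP1 libraries were below all siCtrl2 libraries. The mean fell from 0.0795 ± 0.0048 to 0.0221 ± 0.0117 (SD, n = 3), a change of -0.0575 (quasi-binomial F test with dispersion moderated by limma, adjusted p = 0.00206). The reads behind it were 330 including and 2578 skipping in siCtrl2 and 96 including and 2721 skipping in siFUBP1. An exact permutation test of 3 libraries against 3 cannot go below p = 0.1, the value found here. The call rested on estimating the spread from events with similar information (reads times inclusion share times skipping share). In limma on the log2 odds of inclusion, the same change had an adjusted p of 0.78 without a variance trend and 0.839 with a trend on the mean. The call was also lost without siCtrl2 library 1 (adjusted p = 0.12) or siFUBP1 library 2 (adjusted p = 0.18).

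**Figure D1:**
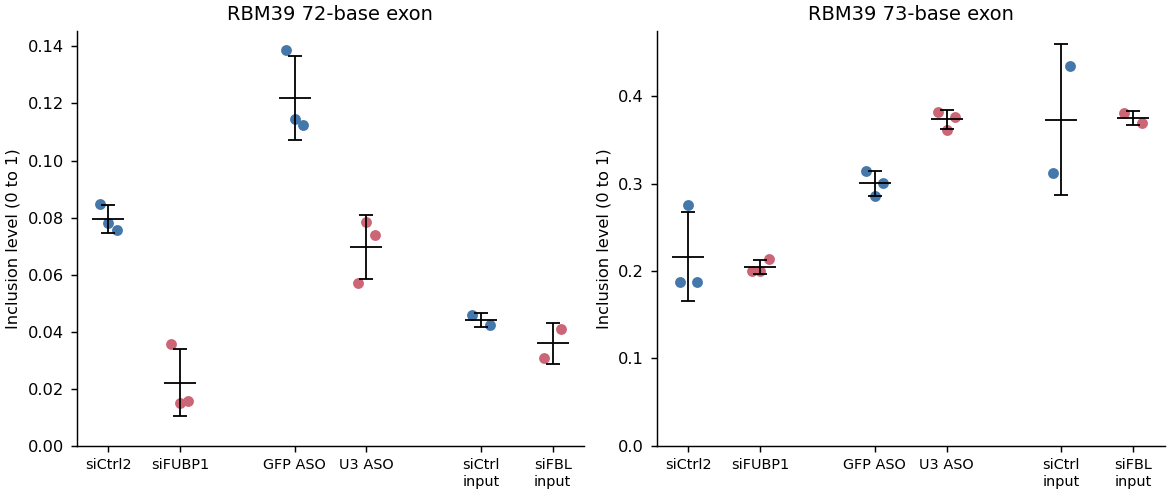
Inclusion level (0 to 1) of the RBM39 72-base exon (left) and 73-base exon (right). Each point is 1 library (blue, control; red, depletion), the horizontal line is the mean and the bars are the SD. The 72-base exon was lower in every siFUBP1 and U3 ASO library than in every library of the matching control, and the 73-base exon was higher in every U3 ASO library than in every GFP ASO library.

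Of the 65 RBM events listed for siFUBP1, 59 in 19 genes had at least 10 junction reads per library on average and were tested. The RBM39 exon was the 1 event called at an adjusted p under 0.1, and the only one with an unadjusted p under 0.05. Over all 16213 events tested, 0.154% were called, 0.117% with lower and 0.037% with higher inclusion, and 3.57% had an unadjusted p under 0.05. The RBM events went down and up in nearly equal numbers (30 lower, 29 higher), and their median change was -0.00179 beside -0.00139 for all events. Most exons were included almost fully, with a mean siCtrl2 level above 0.95 in 32 events, between 0.1 and 0.9 in 14 and below 0.1 in 7. Libraries of the groups did not overlap in 5 RBM events, and in 5.05% of all events.

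The other 12 RBM39 events tested for siFUBP1 moved little, with changes between -0.015 and 0.0205. The 73-base exon had levels of 0.187, 0.275 and 0.188 in siCtrl2 and 0.2, 0.2 and 0.214 in siFUBP1 (adjusted p = 0.836). The groups overlapped, and siCtrl2 library 2 was the highest of all. Exon 5 of the canonical transcript (66 bases, chr20:35729462-35729527, coding) was at 0.945 ± 0.0056 in siCtrl2 and 0.966 ± 0.0084 in siFUBP1 (SD, n = 3, adjusted p = 0.836) in its event with the most reads. Its libraries did not overlap, but the change did not pass the test.

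U3 depletion also lowered the RBM39 72-base exon, in libraries that shared no sample with the FUBP1 experiment. Its level was 0.139, 0.115 and 0.112 in the GFP ASO libraries and 0.0569, 0.0784 and 0.0738 in the U3 ASO libraries. The groups again did not overlap. FUBP1 itself was lower in the same U3 ASO libraries, with a junction level of 59.9 ± 3.68 rpm in GFP ASO and 41.6 ± 2.53 rpm in U3 ASO (SD, n = 3), 69.4% of control (limma, adjusted p = 0.00437, and 0.000192 with libraries scaled by the median ratio of genes). The part of this FUBP1 fall in the change of the exon was not tested. The mean of the exon fell from 0.122 ± 0.0148 to 0.0697 ± 0.0113 (SD, n = 3), a change of -0.0522 (quasi-binomial F test, adjusted p = 0.0047). Including reads went from 999 to 806 while skipping reads rose in number from 4903 to 7192. As for siFUBP1, limma on the log2 odds did not call it (adjusted p = 0.872 without a variance trend, 0.871 with one), and the call was lost without GFP ASO library 1 (adjusted p = 0.118) or U3 ASO library 1 (adjusted p = 0.171). Whether the changes with siFUBP1 and with U3 ASO differ in size was not tested.

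The RBM39 73-base exon moved the other way with U3 ASO but did not pass the adjusted threshold. Its level was 0.315, 0.286 and 0.301 in GFP ASO and 0.383, 0.362 and 0.377 in U3 ASO. No library overlapped. Means were 0.301 ± 0.0143 and 0.374 ± 0.0107, respectively (SD, n = 3), with an unadjusted p of 0.000389 and an adjusted p of 0.165 in the quasi-binomial fit over all events. Its reads were 2146 including and 3360 skipping in GFP ASO and 3461 including and 3902 skipping in U3 ASO. In limma with the variance trend on the information, an alternative added after seeing the data, it was called (adjusted p = 3.22e-16).

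RBM events tested for U3 ASO numbered 84 in 20 genes, of which 1 was called and 6 had an unadjusted p under 0.05. Over all 30109 events, 0.186% were called, 0.083% with lower and 0.103% with higher inclusion, and 3.25% had an unadjusted p under 0.05. Lower inclusion was seen in 57 RBM events and higher in 27, that is 67.9% lower, and 59.2% of all events had a lower mean. The median change was -0.0058 for RBM events and -0.00355 for all events. Libraries did not overlap in 8 RBM events, and in 6.03% of all events. The median RBM event had 207.9 reads per library, more than the 124.5 of all events, so the RBM events were among the better measured.

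The other 4 RBM events with an unadjusted p under 0.05 for U3 ASO concerned exons with levels above 0.95 in GFP ASO, none called. RBM39 exon 6 has a 54-base form (chr20:35729312-35729365) and a 51-base form ending 3 bases earlier in the genome (chr20:35729312-35729362). Their events had the same skipping reads, with 404 mean reads per library for the 51-base form and 2609 for the 54-base form. Each level sets 1 form against skipping and leaves out the other form. The levels are therefore not shares of the forms, and their falls are not separate changes. The 51-base form was at 0.993, 1 and 0.968 in GFP ASO and 0.971, 0.869 and 0.87 in U3 ASO (adjusted p = 0.593). The 54-base form went from a mean of 0.998 ± 0.0028 to 0.985 ± 0.0087 (SD, n = 3, adjusted p = 0.868). In both forms, U3 ASO library 1 lay within the range of the GFP ASO libraries. RBM5 exon 8 of 25, a 61-base coding exon at chr3:50104248-50104308, was at 1, 0.967 and 1 in GFP ASO and 0.801, 0.96 and 0.847 in U3 ASO (unadjusted p = 0.0416, adjusted p = 0.868). RBM6 exon 18 of 21, a 75-base coding exon at chr3:50068690-50068764, was at 1 in all libraries but GFP ASO library 2, which had 0.918 (adjusted p = 0.868). RBM5 and RBM6 lie next to each other on chromosome 3 and are both regulators of alternative exons. Over the 18 RBM39 events tested in this table, changes ran from -0.0835 to 0.0733.

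FBL depletion called no RBM event in the input libraries, where the depth was lowest. Of 20 listed events, 18 in 10 genes were tested, 0 had an unadjusted p under 0.05, and 12 were lower and 6 higher. In all 5208 events, 0% were called, 1.46% had an unadjusted p under 0.05 and 13.8% had libraries that did not overlap, beside 4 of the RBM events. Limma on the log2 odds called 0 RBM events as well. The RBM39 72-base exon was at 0.0457 and 0.0424 in siCtrl and 0.0309 and 0.041 in siFBL (adjusted p = 0.897). Both siFBL libraries were below both siCtrl libraries, with 52 including reads in siCtrl and 35 in siFBL, and the change did not pass the test. An exact permutation test of 2 libraries against 2 cannot go below p = 0.333, the value found here. The 73-base exon was at 0.312 and 0.435 in siCtrl and 0.381 and 0.37 in siFBL, and RBM39 exon 5 was at 1 and 0.955 in siCtrl and 0.996 and 0.899 in siFBL (adjusted p = 0.897 for both). For both exons the groups overlapped. The median change of RBM events was -0.0697 beside -0.00337 for all events, over a median of 25 reads per library.

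**Figure D2:**
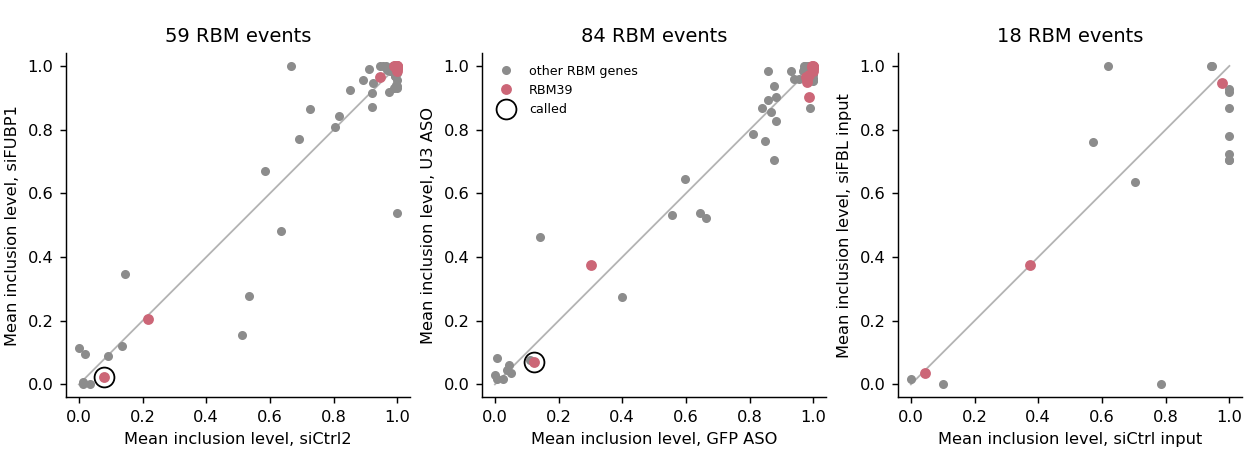
Mean inclusion level (0 to 1) of each tested RBM event in the control group (horizontal axis) and after depletion (vertical axis), for siFUBP1 (59 events), U3 ASO (84) and siFBL (18). The grey line marks equal levels, red points are RBM39 events, and circles mark the 1 called event of the siFUBP1 table and the 1 of the U3 table, both below the line near the lower left.

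The 2 RBM39 exons differed in level between the 3 control groups. The 72-base exon was highest in GFP ASO (0.122), then siCtrl2 (0.0795) and siCtrl input (0.0441), and these ranges of libraries did not overlap. The 73-base exon was at 0.373 in siCtrl input, 0.301 in GFP ASO and 0.217 in siCtrl2. The siCtrl input libraries (0.312 and 0.435) overlapped the GFP ASO libraries, but those of siCtrl2 did not. GFP ASO and siCtrl2 differ in reagent and time. The siCtrl2 and siCtrl input libraries, both at 48 h, differ in reagent and RNA preparation (TRIzol extraction against a cell lysate). The study's methods give poly(A) selection for siCtrl2 and mention none for siCtrl input. These differences cannot be told apart within each pair. Over the 48 RBM events tested in both the siFUBP1 and the U3 table, the means of siCtrl2 and GFP ASO differed by a median of 0.0307 and by at most 0.355.

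In all, 77 distinct RBM exons in 23 genes were tested, 33 to 1551 bases long with a median of 96. Of these, 74 were in GENCODE with the same ends, 65 belonged to the canonical transcript, 61 were wholly coding and 35 had a length that is a multiple of 3. Several exons of the canonical transcript were alternative in HepG2. The following were named after their values were seen, for mean control levels between 0.1 and 0.9. Exon 4 of RBM10 (231 bases, chrX:47171028-47171258) was at 0.596 ± 0.0947 in GFP ASO and 0.644 ± 0.0668 in U3 ASO. Exon 5 of RBM42 (66 bases, chr19:35632936-35633001) had means of 0.555 ± 0.103 and 0.532 ± 0.0277 in the same groups. Exon 3 of RBM34 (137 bases, chr1:235160511-235160647) was at 0.867 ± 0.0232 in GFP ASO and 0.854 ± 0.0356 in U3 ASO in its event with the most reads (SD, n = 3 for each). None of these passed the test, and in each the groups overlapped.

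Exon 5 of RBM41, a protein of the minor spliceosome, varied widely between libraries. This 72-base exon (chrX:107113397-107113468) was at 0.556, 0.658 and 0.386 in siCtrl2 and 0.0554, 0.252 and 0.529 in siFUBP1 (adjusted p = 0.836). It was at 0.51, 0.236 and 0.449 in GFP ASO and 0.36, 0.243 and 0.216 in U3 ASO (adjusted p = 0.868). The groups overlapped in both experiments, at 33.2 and 70.0 reads per library. Exon 9 of RBM27 (165 bases, chr5:146251711-146251875) had a mean level of 0.644 ± 0.099 with GFP ASO against 0.538 ± 0.0604 with U3 ASO (SD, n = 3) in its event with the most reads, also with overlap. Its other event, with 19.0 reads per library, had means of 1 in GFP ASO and 0.976 in U3 ASO. Exon 3 of RBM38 (55 bases, chr20:57393279-57393333) was at 0.912, 0.885 and 0.884 in siCtrl2 and 0.92, 1 and 0.95 in siFUBP1. This RBM38 exon was one of the 5 events whose siFUBP1 and siCtrl2 libraries did not overlap, and it did not pass the test (adjusted p = 0.836).

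By role, both calls, which concern the same RBM39 72-base exon, fell in the exon definition and splice site list (15 genes). This list also held most tested RBM events, 38 of 59 for siFUBP1 (7 genes) and 53 of 84 for U3 ASO (10 genes), each with 1 called lower. Over all events, 0.154% were called for siFUBP1 and 0.186% for U3 ASO. Whether calls differ between the lists was not tested. The exon junction and nuclear decay list (7 and 10 events), the minor spliceosome list (3 and 5), the ribosome biogenesis list (4 and 6) and the other RBM genes (6 and 10) had 0 calls by the quasi-binomial test in both tables, and 0 of their events had an unadjusted p under 0.05. The m6A writer list had 1 event, in the siFUBP1 table, a 111-base RBM15 exon with 13.0 reads per library, which was not called (adjusted p = 0.836).

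The level of an RBM transcript was followed through its junction reads, summed over the listed events of a gene and scaled to a library total of 1000000 junction reads (rpm). This is a proxy for RNA level, since it sees only genes with listed events and counts a junction once for each event that uses it. In bulk libraries fewer cells with a transcript and less of it per cell cannot be told apart. With siFUBP1, RBM38 fell and no other RBM gene of the 19 tested was called. RBM38, an RNA-binding protein induced by p53, had 88.7, 90.1 and 67.7 rpm in siCtrl2 and 46.9, 27.7 and 49.8 in siFUBP1. All siFUBP1 libraries were lower than all siCtrl2 libraries. Its log2 change was -1.01 ± 0.24 (SE; limma, adjusted p = 0.0119), while 12.2% of all 6432 genes were called, 6.48% lower and 5.74% higher. The next smallest p-values belonged to RBM18 (log2 change 0.71 ± 0.29), RBM10 (-0.53 ± 0.22), RBM47 (1.22 ± 0.55) and RBM34 (0.53 ± 0.26), with SE given and adjusted p from 0.149 to 0.253. RBM39 was at 1732, 1703 and 1633 in siCtrl2 and 1811, 1906 and 1563 in siFUBP1, a log2 change of 0.05 ± 0.08 (SE) with overlapping groups.

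With U3 ASO, 11 of 20 RBM genes were called higher on the scale of total junction reads. Over all 8548 genes, 47.2% were called, 36.8% higher and 10.4% lower, and the median gene rose by 0.27 on the log2 scale, so changes are also given relative to that median. RBM genes had a median log2 change of 0.39 (0.15 when libraries were scaled by the median ratio of genes, beside 0.03 for all genes), and 14 of the 20 lay above the median of all genes. RBM39 had 1259, 1254 and 1207 rpm in GFP ASO and 1730, 1840 and 1699 in U3 ASO, with no overlap. Its log2 change was 0.50 ± 0.05 (SE; limma, adjusted p = 1.14e-07), or 0.23 relative to the median. Under median ratio scaling, 10 of the 20 RBM genes were called, 9 higher and 1 lower, beside 37.7% of all genes. The share of higher genes among all called genes went from 78.0% to 49.1%.

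Of the 11 genes, 6 were on the splicing list. RBM5 went from 150.8, 148.5 and 145.3 rpm to 235.9, 224.4 and 222 (log2 change 0.62 ± 0.08 SE, 0.35 relative to the median). RBM6 went from 144.4, 124.4 and 126.8 to 199.3, 211.2 and 178.7 (0.57 ± 0.09, 0.31 relative). RBM38, which had fallen with siFUBP1, went from 64.4, 63.9 and 77.0 to 118.8, 116.5 and 106.5 (0.74 ± 0.11, 0.47 relative). In these 3 genes no U3 ASO library overlapped a GFP ASO library. RBM4, a regulator of alternative exons, had a log2 change of 0.85 ± 0.13 (0.58 relative), and RBM23, a close relative of RBM39, of 1.88 ± 0.50 (1.62 relative) from a low level of 0.409 to 2.31 rpm in GFP ASO (SE for both). All 5 were still called under median ratio scaling, with adjusted p from 0.00138 to 0.0156 (limma), but RBM23 was not called when only its event with the most reads was used (adjusted p = 0.155).

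Outside the splicing list, the largest rise was in RBM47, an RNA-binding cofactor of APOB mRNA editing. It had 7.02, 4.41 and 3.03 rpm in GFP ASO and 18.5, 22.3 and 19.0 in U3 ASO (log2 change 2.01 ± 0.31 SE, 1.74 relative to the median, limma adjusted p = 0.000184 under median ratio scaling). RBM18 rose by a log2 of 1.09 ± 0.20 (0.82 relative) and RBM34, a nucleolar protein, by 0.78 ± 0.15 (0.52 relative, SE for both), and both were still called under median ratio scaling. RBM33 (0.39 ± 0.17, 0.12 relative) and RBM8A (0.33 ± 0.14, 0.07 relative), the latter a core protein of the exon junction complex, were called on the total scale but not under median ratio scaling (limma adjusted p = 0.584 and 0.675) or without some single libraries (up to 0.308 without GFP ASO library 3 for RBM33 and 0.279 for RBM8A). The gene called lower under that scaling was RBM10, at 84.1, 99.3 and 111.3 in GFP ASO and 92.5, 90.6 and 90.6 in U3 ASO. On the total scale RBM10 changed by -0.10 ± 0.11 (SE, -0.36 relative) with overlapping groups and was not called. Leaving out single libraries left 9 to 12 RBM genes called. RBM25 (log2 change 0.06 ± 0.15 SE, -0.21 relative), RBM27 (0.16 ± 0.11 SE, -0.10 relative) and the minor spliceosome genes RBM41 and RBM48 were not called.

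Markers of the hepatocyte lineage moved in the same libraries. Of 9 tested with U3 ASO, 5 were called lower on the total scale, among them TF, from 7905 to 2497 rpm, and ALB, from 34070 to 28320. Another 3 were called higher on that scale, among them HNF4A and TTR, neither of which was called under median ratio scaling (limma adjusted p = 0.612 and 0.46). Of 8 tested with siFUBP1, 3 were called lower and 1 higher. Of 8 tested with siFBL, 0 were called lower and 3 higher by limma, AFP (log2 change 0.46), APOB (0.15) and SERPINA1 (1.33). The part of such abundant genes in the scale of the RBM levels was not tested.

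With siFBL, 0 of 10 RBM genes were called by limma for a change in junction level in the input libraries, and 0 had an unadjusted p under 0.05. Of all 3217 genes 3.64% were called, 2.86% lower and 0.777% higher, and the median gene changed by -0.19 on the log2 scale. The share of higher genes among all called went from 21.4% to 59.6% under median ratio scaling, in which again 0 RBM genes were called. RBM39 had 1176 and 1049 rpm in siCtrl and 1028 and 882.4 in siFBL (log2 change -0.22 ± 0.15 SE, adjusted p = 0.557). All siFBL values of RBM39 were below the siCtrl values, but the change did not pass the test. The smallest p-value was that of RBM34, with a log2 change of -1.08 ± 0.64 (SE, adjusted p = 0.499). RBM10 (-0.57 ± 0.43), RBM18 (-0.79 ± 0.73) and RBM4 (-0.20 ± 0.51) came after RBM39 by p-value, with SE given and adjusted p from 0.619 to 0.924.

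**Figure D3:**
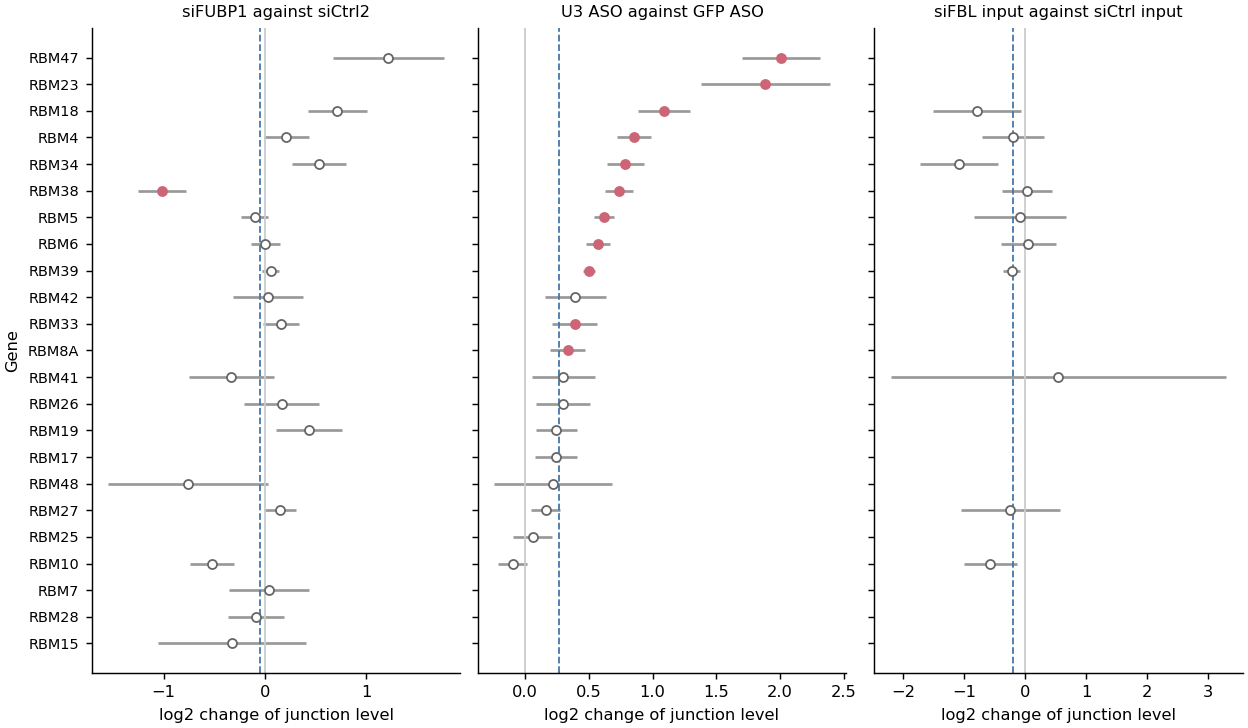
Log2 change of the junction level (rpm, depletion against control) of each tested RBM gene, with the standard error. Filled points were called at an adjusted p under 0.1, the grey line is 0 and the dashed line is the median of all genes; 1 gene was called for siFUBP1 (RBM38, lower), 11 for U3 ASO (all higher) and 0 for siFBL.

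FUBP1 RIP measured which RBM transcripts were recovered with the protein. The deposited log2 ratio of RIP over input, termed enrichment, was tested for 34 of the 37 RBM genes in siCtrl, and RBM11, RBM44 and RBM46 had too few reads in one or both conditions. Enrichment was above 0 in 21 and below 0 in 9 at an adjusted p under 0.1, and 4 were not called. Of all 14242 genes, 41.1% were called above 0 and 38.9% below. The median was 0.55 for the RBM genes and 0.08 for all genes, and the quartiles of all genes were -1.77 and 1.62. An enrichment above 2, a 4-fold excess, was reached by 11 RBM genes and by 19% of all genes, and 4 RBM genes and 21.6% of all genes lay below -2.

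The highest enrichment among the RBM genes was that of RBM12B at 2.49 ± 0.15 (SE), followed by RBM24 (2.47 ± 0.39), RBM47 (2.36 ± 0.18), RBM27 (2.34 ± 0.08) and RBM12 (2.32 ± 0.08). These neighbours differed by less than their errors. RBM24 is a splicing regulator of striated muscle, and RBM27 takes part in the decay of nuclear polyadenylated RNA. RBM39 was at 2.07 ± 0.06, above 82.1% of all genes. At the other end stood RBM20 (-3.27 ± 1.29), RBM42 (-2.84 ± 0.18), RBM10 (-2.11 ± 0.13), RBM14 (-2.10 ± 0.22) and RBM38 (-1.51 ± 0.14). RBM20, a splicing factor of titin in heart muscle, had the widest error of the group, so its place in the order is uncertain. RBM14 and RBM4 share reads with an annotated read-through gene, and RBM4 and RBM4B are closely similar copies, so their counts are less certain.

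By role, the 4 genes of the exon junction and nuclear decay list were all above 0, as were the 2 of the minor spliceosome. RBM7, a subunit of the nuclear exosome targeting complex, was at 2.22 ± 0.18 (SE), and RBM26 was at 2.25 ± 0.09. RBM41 and RBM48 were at 2.14 ± 0.11 and 2.12 ± 0.28. The splicing list was divided, with 5 of 14 called above 0 and 6 called below, and a median of 0.20. The rest of the list, RBM4B, RBM22 and RBM23, had values above 0 that were not called. Within it, the related proteins RBM39 and RBM23 stood at 2.07 ± 0.06 and 0.55 ± 0.62, and RBM5, RBM6 and RBM10 at -0.41 ± 0.09, 0.33 ± 0.10 and -2.11 ± 0.13. Of the m6A writer pair, RBM15 was at 1.61 ± 0.09 and its paralog RBM15B at -1.08 ± 0.08. Among the ribosome biogenesis genes RBM28 and RBM34 were above 0 and RBM19 below. Of the 9 other RBM genes tested 7 were called above 0 and 1 below, and RBM3 (0.18 ± 0.16) was not called.

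**Figure D4:**
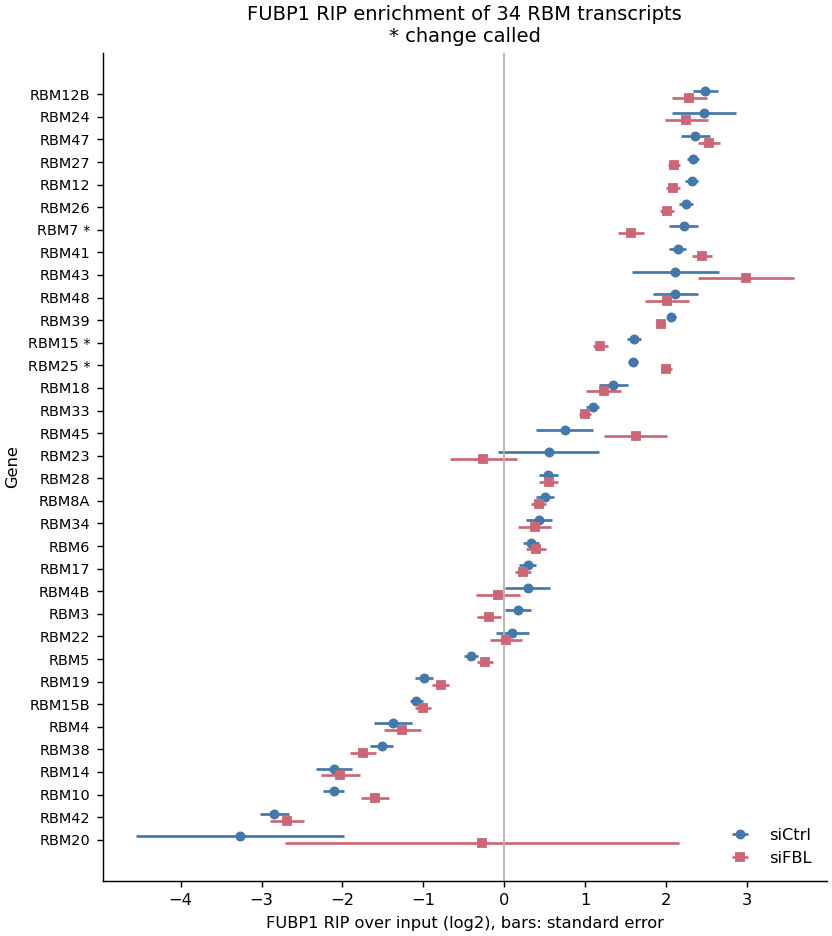
Enrichment of 34 RBM transcripts in FUBP1 RIP over input (log2, deposited values) in siCtrl (blue circles) and siFBL (red squares), with the deposited standard error, sorted by the siCtrl value. Values ran from -3.27 to 2.49 in siCtrl, and asterisks mark the 3 genes whose enrichment changed with siFBL.

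Enrichment among RBM transcripts followed base composition. The canonical transcripts of the 11 genes with enrichment above 2 had 36.3 to 46.9% G and C bases (median 40.5%), and those of the 9 genes below 0 had 49.3 to 65.0% (median 55.8%). The ranges did not overlap. Across the 34 genes, Spearman's rho between G and C content and siCtrl enrichment was -0.767 and Pearson's r was -0.806. Across the 13661 of 14242 genes with a value, rho was also -0.767 and r was -0.738, so the relation was not particular to the RBM genes. These are descriptions across genes, which are not independent replicates and share the same libraries. Transcript length was less related (rho 0.345 over the RBM genes and 0.361 over all genes). RBM15 stood off this line, with 54.2% G and C and an enrichment of 1.61. The part of base composition in these ratios was not tested.

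**Figure D5:**
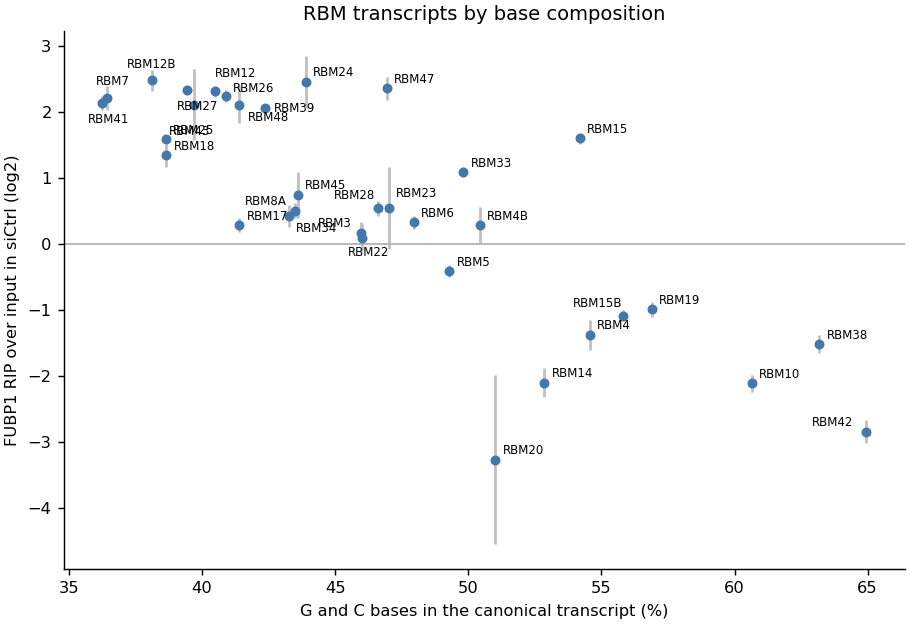
Enrichment in FUBP1 RIP over input in siCtrl (log2, with the deposited standard error) against the percentage of G and C bases in the canonical transcript, for 34 RBM genes. Enrichment was lower at higher G and C content (rho -0.767), and RBM15 lay above its neighbours.

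FBL depletion changed the enrichment of 3 RBM transcripts. RBM25 rose from 1.59 ± 0.06 to 2.00 ± 0.06, a difference of 0.41 ± 0.09 (SE; normal test of the deposited values, adjusted p = 0.000114). RBM15 fell from 1.61 ± 0.09 to 1.19 ± 0.09, a difference of -0.42 ± 0.13 (adjusted p = 0.0157). RBM7 fell from 2.22 ± 0.18 to 1.57 ± 0.16, a difference of -0.65 ± 0.24 (adjusted p = 0.0657). Of all genes, 12% were called, 5.36% higher and 6.64% lower, so 3 of 34 lies near the overall share. RBM10 (0.51 ± 0.21, adjusted p = 0.123) and RBM27 (-0.24 ± 0.11, adjusted p = 0.17) came next and were not called.

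For the other RBM transcripts no change passed the test. RBM39 was at 2.07 ± 0.06 in siCtrl and 1.94 ± 0.04 in siFBL, a difference of -0.13 ± 0.07 (SE, adjusted p = 0.341). RBM26 and RBM12 had differences of -0.24 ± 0.12 each. Lower enrichment in siFBL was seen for 19 of the 34, with a median difference of -0.07, and for 50.2% of all genes. Of the 10 hepatocyte-lineage markers, all of which lay below 0 in siCtrl, 8 were called higher in siFBL and 0 lower. The other markers, AFP and HNF4A, had differences of 0.11 ± 0.05 and 0.16 ± 0.10 (SE) and were not called. The part of such abundant RNAs in these ratios was not tested. In the RIP table the authors' mean count of FBL itself was 1034 for the siCtrl samples and 164.4 for the siFBL samples. That of FUBP1 was 14260 and 8689, respectively. The enrichment of FUBP1's own transcript went from 2.85 ± 0.05 to 2.65 ± 0.06 (SE; normal test of the deposited values, adjusted p = 0.0899). The part of these FUBP1 values in the changes of RBM transcripts was not tested.

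Genes near the RBM set gave a frame for these values. Among 6 relatives named RBM without a number, RBMX, a splicing regulator encoded on the X chromosome, fell with U3 ASO from 462 ± 30.9 to 355.1 ± 9.38 rpm (SD, n = 3, log2 change -0.38 ± 0.07 SE). RBMS1 and RBMS2 rose on the total scale (log2 change 0.40 ± 0.14 and 1.38 ± 0.59 SE) but were not called under median ratio scaling (limma adjusted p = 0.442 and 0.131), where RBMX still was. In FUBP1 RIP, 3 of 5 tested relatives were called above 0 and 1 below, and the highest was RBMS1 at 3.20 ± 0.07 (SE). The 8 partners of 3′ splice site recognition, among them U2AF2, SF1 and SF3B1, had 0 of 15 events called with siFUBP1 and 0 of 28 with U3 ASO by the quasi-binomial test (0 and 5 with an unadjusted p under 0.05). Of this list 7 were tested in RIP, with 3 called above 0 and 3 called below, and FUBP1's own transcript was at 2.85 ± 0.05 (SE).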

How the data were processed

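Reads of HepG2 RNA-seq and FUBP1 RIP-seq were trimmed (Cutadapt) and aligned to hg38 (HISAT2) by the authors, without stated versions. Per the labels, rMATS junction tables and a RIP table were deposited. Junction counts were deposited as lists of whole numbers without library numbers, and libraries are named by list position. The authors' log2 ratio of RIP over input, its standard error and their mean count, a score averaged over libraries not given in the sources used here, came from DESeq2 after gene counting (HTSeq in the methods, featureCounts in the notes). The authors' p-values and FDR and 6 columns of inclusion levels were not used.

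Inclusion levels were computed per library. Events with at least 10 mean reads were tested by a quasi-binomial F test, dispersion moderated in limma 3.58.1 (R 4.3.3) with a prior from events with information of at least 5. The prior degrees of freedom were infinite, so an event's own spread did not enter its test. Junction levels were tested by limma on log2(rpm + 0.5). RIP differences were divided by the root of the summed squared standard errors and taken as normal (mean count at least 10). All p-values are two-sided and adjusted over all features by Benjamini-Hochberg, with calls at 0.1. Each form of test was run on simulated data. Event counts there were drawn with the fitted dispersion, so events whose spread departs from it were not covered. Exons came from GENCODE 44 and sequences from the hg38 assembly, whose letters before and after 99.9% of exons were those of splice sites. 

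Members, role lists and tests were chosen with earlier results of these data known. Named by rule were called members, otherwise those with the smallest p, all RBM39 events, and the 5 highest and 5 lowest members in RIP. Reads carry no molecular identifiers that the labels mention, so depth covers counting error only.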

Additional observations from a re-analysis of the deposited data

How the results depend on the processing

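No paired analysis was possible because the lists of reads carry no library numbers. The change of the RBM39 72-base exon kept its sign under every setting run, but this was fixed beforehand. Other tests and read minimums do not alter the change itself. Groups of libraries that do not overlap keep their order when 1 library is left out. With siFUBP1, limma on the log2 odds did not call the change of -0.0575, either without a variance trend (adjusted p = 0.78) or with one (adjusted p = 0.839), when 0 RBM events and 8 and 2 events in all were called, beside 25. With U3 ASO, the change of -0.0522 was not called by these either (adjusted p = 0.872 and 0.871), with 0 RBM events and 0 events in all, beside 56. With the trend on the information, added after seeing the data, limma called 83 events for siFUBP1 with 1 RBM event, 251 for U3 ASO with 2 RBM events, and 6 for siFBL. The other adjusted p of the exon ran from 8.22e-06 to 0.18 for siFUBP1 and from 3.55e-12 to 0.171 for U3 ASO. Leaving out each library in turn gave changes from -0.0642 to -0.0539 for siFUBP1 and from -0.057 to -0.0437 for U3 ASO, with 0 to 1 RBM events called in each. All events called then numbered 10 to 20 for siFUBP1 and 30 to 48 for U3 ASO. Among the events refitted in this way (those of RBM39 that were tested, and for U3 ASO also RBM5 exon 8 and RBM6 exon 18), uncalled changes whose sign turned were those of the RBM39 73-base exon (from -0.0266 to 0.0175 for siFUBP1 and from -0.0591 to 0.0631 for siFBL, where both such fits were negative, the other at -0.00394), RBM39 exon 5 (from -0.0787 to 0.0179 for siFBL, and from -0.00138 to 0.00355 for U3 ASO in the event with the 51-base form of exon 6) and RBM39 exon 12 (from -0.00379 to 0.00595 for U3 ASO). The siFBL level of RBM4 changed by -0.54 to 0.14 (log2), and 7 to 89 genes were called for siFBL levels, beside 117. Those siFBL fits leave an arm with 1 library, which is assumed to vary like the others. Centring the RIP ratios on the median of all genes called RBM10 as well (0.55, adjusted p = 0.0921). For U3 ASO levels, RBM33 lost its call without any 1 of GFP ASO libraries 2 and 3 and U3 ASO libraries 2 and 3, and RBM8A without any 1 of GFP ASO library 3 and U3 ASO libraries 1 and 3. Of 672 tested changes and enrichments under another setting, 633 kept direction and side of the threshold, and 11 uncalled exon changes went to 0 without 1 library, among them that of RBM6 exon 18 without GFP ASO library 2. siFBL tables had the fewest reads and 2 libraries in each group, and which of these limited their calls was not tested. The cause of these differences was not tested.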
